A study of Mus musculus with 141 samples.

Results

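The genes described here carry choline into the cell and pass its methyl groups on to phospholipids and to homocysteine. They were chosen by name and number 10 of the 24423 genes in the files, namely the choline transporter-like genes Slc44a1, Slc44a2, Slc44a3 and Slc44a4, choline kinase alpha (Chka), phosphatidylethanolamine N-methyltransferase (Pemt), choline dehydrogenase (Chdh), betaine-homocysteine methyltransferase (Bhmt), dimethylglycine dehydrogenase (Dmgdh) and glycine N-methyltransferase (Gnmt). RNA was sequenced from liver, lung and kidney of 47 Collaborative Cross strains, recombinant inbred mouse strains bred from a shared set of inbred founders, which gave 47 libraries in each tissue. Each strain was represented by 1 male mouse of 8 to 12 weeks, and all 3 tissues of a strain came from that mouse. All mice ate the NTP 2000 diet, were kept on a 12-h light cycle and breathed filtered air in a chamber for 6 h per day over 2 weeks, so that no group differed in treatment and the comparisons are between tissues and between strains. With 1 mouse per strain, a difference between strains and a difference between individual mice cannot be told apart. In whole tissue, a change in the number of cells of a type and a change in RNA per cell cannot be told apart either.

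Choline is an essential nutrient that enters cells through membrane transporters of several families. Choline kinase directs it to phosphatidylcholine, the main membrane phospholipid, which hepatocytes also make by methylating phosphatidylethanolamine with Pemt. Mitochondrial choline dehydrogenase starts its oxidation to betaine. Bhmt then moves a methyl group of betaine to homocysteine and yields methionine and dimethylglycine, Dmgdh demethylates dimethylglycine to sarcosine, and Gnmt makes sarcosine from glycine with S-adenosylmethionine as donor. Oxidation of choline and the use of betaine as a methyl donor are best known in liver and kidney.

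Total counts ranged from 1738046 to 42158454 per library in liver, from 2829104 to 17585682 in lung and from 3046695 to 15028553 in kidney. A large part of these reads lay in Rn45s, the ribosomal RNA precursor, and Lars2, with a median of 43.2% in liver, 24.1% in lung and 32.3% in kidney and a maximum of 90.5% in the lung of CC015. The scaling factors from the trimmed mean of M values (TMM) followed this share with Spearman's rho of -0.974, -0.978 and -0.992 in liver, lung and kidney. Levels are therefore given as counts per 1000000 counts of the TMM-scaled library (CPM), and as the deposited transcripts per 1000000 transcripts (TPM) where genes are compared with each other. The main cell type of each tissue was checked by its markers. The 6 hepatocyte markers summed to between 45380 and 161900 CPM in every liver, 6 proximal tubule markers to between 13200 and 42250 CPM in every kidney and 4 alveolar type 2 markers to between 3315 and 7936 CPM in every lung. Other sets crossed tissues. The 4 bile duct markers had a median sum of 5.0 CPM in liver, 149.7 CPM in lung and 88.4 CPM in kidney. The 3 airway secretory markers (Scgb1a1, Scgb3a2 and Cyp2f2) had 1411 CPM in liver, 6836 CPM in lung and 7.57 CPM in kidney. Which of these 3 genes made up the liver sum was not examined. The lung of CC010 held 515.2 CPM of the hepatocyte markers against a lung median of 56.96 CPM, and the livers of CC035 and CC033 held 1110 and 998.1 CPM of the proximal tubule markers against a liver median of 48.4 CPM.

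Genes were tested between tissues where they passed 1 CPM of the total counts, before TMM scaling, in at least 30% of the libraries. A gene was called when its adjusted p (limma-voom over 12127 genes, Benjamini-Hochberg) was at most 0.1 and its log2 fold change at least 1 in size. Of the 10 genes, 8 were tested, and Chka and Pemt fell below this filter on unscaled libraries. Between liver and lung 6 of the 8 were called, 4 higher in liver (Chdh, Bhmt, Dmgdh, Gnmt) and 2 higher in lung (Slc44a2, Slc44a4), beside 54.9% of all genes tested. Between liver and kidney 5 were called, 4 higher in liver (Slc44a3, Bhmt, Dmgdh, Gnmt) and Slc44a4 higher in kidney, beside 36.6% of all genes. Between lung and kidney 7 were called, Slc44a2 and Slc44a3 higher in lung and Slc44a4, Chdh, Bhmt, Dmgdh and Gnmt higher in kidney, beside 46.3% of all genes. The shares of genes called were high over the whole table, and the counts of 6, 5 and 7 of 8 have to be read against them. The median log2 fold change of the 8 genes was 2.62, 0.96 and -2.10 in these comparisons, against -0.07, -0.07 and -0.02 over all genes.

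**Figure D1:**
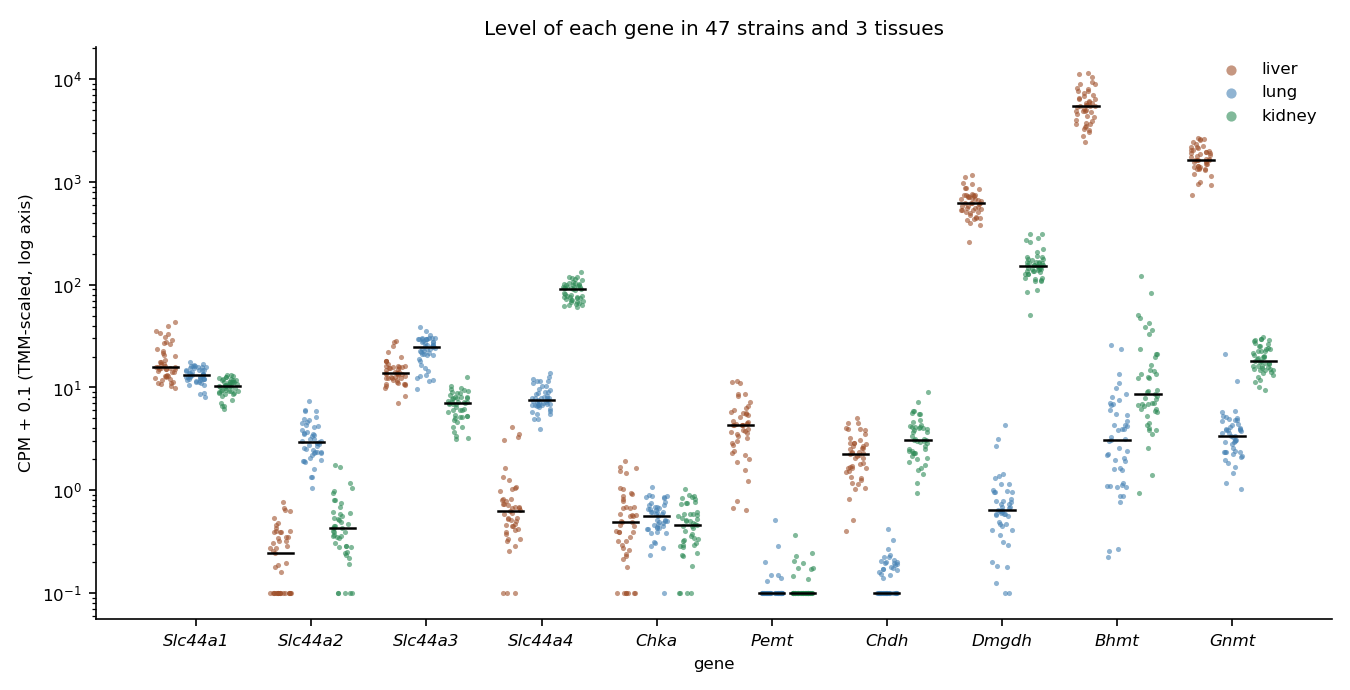
Level of each of the 10 genes in all libraries of the 3 tissues. Each point is 1 library, grouped by tissue, with CPM + 0.1 on a log axis and a black bar at the median of 47 libraries. The liver points of Bhmt, Dmgdh and Gnmt lie above all lung points, and the kidney points of Slc44a4 lie above all points of the other tissues.

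The methyl-transfer genes Bhmt, Gnmt and Dmgdh had the highest levels of the 10 in liver on the TPM scale, which accounts for transcript length, with medians of 4703, 2845 and 356.9 TPM. Bhmt lies on chromosome 13 at 94386846 to 94407916 on the minus strand of the mouse assembly NCBIM37. Its level in liver ranged from 2432 CPM in CC002 through a median of 5497 CPM to 11460 CPM in CC010, with a mean of 5800 ± 2203 CPM (SD, n = 47). In lung Bhmt ranged from 0.126 CPM in CC037 through 2.96 CPM to 26.0 CPM in CC015, and in kidney from 0.850 CPM in CC030 through 8.52 CPM to 120.3 CPM in CC033. Every liver therefore lay above every lung and every kidney. The share of all genes with such a lack of overlap between tissues, here and in the paragraphs below, was not computed. Bhmt was higher in liver by a log2 fold change of 10.85 ± 0.18 (SE) over lung and 9.07 ± 0.17 over kidney, with limma-voom adjusted p of 3.1e-77 and 7.8e-73. Lung over kidney was -1.78 ± 0.18 (3.9e-16, limma-voom), but lung was the higher in 8 of 47 mice on CPM and 11 on TPM. The 6 hepatocyte markers summed to a median of 56.96 CPM in lung and 151.9 CPM in kidney, and their part in this difference was not tested. Of its 2225 windows of 50 bases, the read length, 1019 (45.8%) also occurred in the annotated copy Bhmt-ps1 and 10 in Bhmt2, so the level of Bhmt is uncertain.

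Gnmt, which consumes S-adenosylmethionine, is a short gene on chromosome 17 at 46862613 to 46866117 on the minus strand (NCBIM37). In liver it ranged from 752.8 CPM in CC059 through 1630 CPM to 2667 CPM in CC055 (1719 ± 467.9, SD, n = 47). In kidney Gnmt ranged from 9.41 CPM to 30.6 CPM with a mean of 19.4 ± 5.75 CPM, and in lung from 0.939 CPM to 21.1 CPM with a mean of 3.83 ± 3.09 CPM. Liver did not overlap with either tissue, while kidney and lung overlapped although kidney was higher in all 47 mice on the CPM scale and in all but 1 on the TPM scale. The log2 fold changes of Gnmt were 8.93 ± 0.089 for liver over lung and 6.50 ± 0.084 for liver over kidney (adjusted p of 1.6e-97 and 2.5e-87, limma-voom).

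Dmgdh, the mitochondrial enzyme that follows Bhmt, was high in kidney as well as in liver. It ranged from 258.1 CPM in CC033 through 621.9 CPM to 1160 CPM in CC001 in liver (640.7 ± 184.6, SD, n = 47) and from 50.95 CPM in CC020 through 152.9 CPM to 309.6 CPM in CC039 in kidney (160.3 ± 54.5). In lung it had 410 reads over all 47 libraries, a mean of 0.723 ± 0.768 CPM and at most 3 counts in 13 libraries. Liver and kidney overlapped in range, yet the liver value of Dmgdh was the higher in 47 of 47 mice, with a log2 fold change of 2.02 ± 0.087 (limma-voom adjusted p = 1.1e-40). On the TPM scale it was the higher in 43 of 47 mice. The gene spans 94444388 to 94522786 on the plus strand of chromosome 13 (NCBIM37). AW495222 is annotated on the opposite strand inside Dmgdh, and Gm15622 inside Bhmt. The sources used here do not state strand-specific counting, and without it reads of a gene and of its antisense partner cannot be told apart.

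Pemt, which methylates phosphatidylethanolamine, and Chdh, which starts the oxidation of choline, gave few reads. Pemt, which has 5 named transcripts in the files, ranged in liver from 0.537 CPM in CC027 through 4.20 CPM to 11.5 CPM in CC037. Over all 47 libraries it had 1542 reads in liver, 9 in lung and 14 in kidney, and it was at 0 in 40 lungs and 37 kidneys. Each liver exceeded the lung and kidney of its own mouse, and the pooled level of Pemt was 368.5 times that of lung and 163.1 times that of kidney, without a test because the gene was below the filter. Chdh ranged from 0.297 to 4.91 CPM in liver (2.23 ± 1.08, SD, n = 47) and from 0.839 to 8.96 CPM in kidney (3.35 ± 1.63). Chdh had 37 reads in all 47 lungs and was at 0 in 24 of them. The higher level of Chdh in kidney than in lung (log2 fold change of lung over kidney -5.29 ± 0.15, adjusted p = 2.6e-55, limma-voom) and in liver than in lung (4.74 ± 0.15, 3e-51) passed the threshold, but the value of Chdh for liver over lung was 0.63 on log2(TPM + 1), below the 2-fold limit. The difference of Chdh between liver and kidney, -0.55 ± 0.15, did not reach the 2-fold limit, although it became -1.43, past that limit, when libraries were scaled by total counts.

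Chka, the kinase that commits choline to phosphatidylcholine, was measured at the edge of detection. Its 145 reads in liver, 329 in lung and 177 in kidney gave means of 0.488 ± 0.456, 0.467 ± 0.202 and 0.38 ± 0.23 CPM (SD, n = 47), and at most 3 counts were found in 29, 12 and 27 libraries. Chka was below the filter, and its differences between tissues were not tested. Slc44a1, Slc44a2, Chka, Pemt and Chdh have several named transcripts in the files and the other 5 genes have 1. Only uniquely aligned reads were used, and whether reads shared by the transcripts of a gene were lost, which would bear on levels compared between genes, was not tested.

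**Figure D2:**
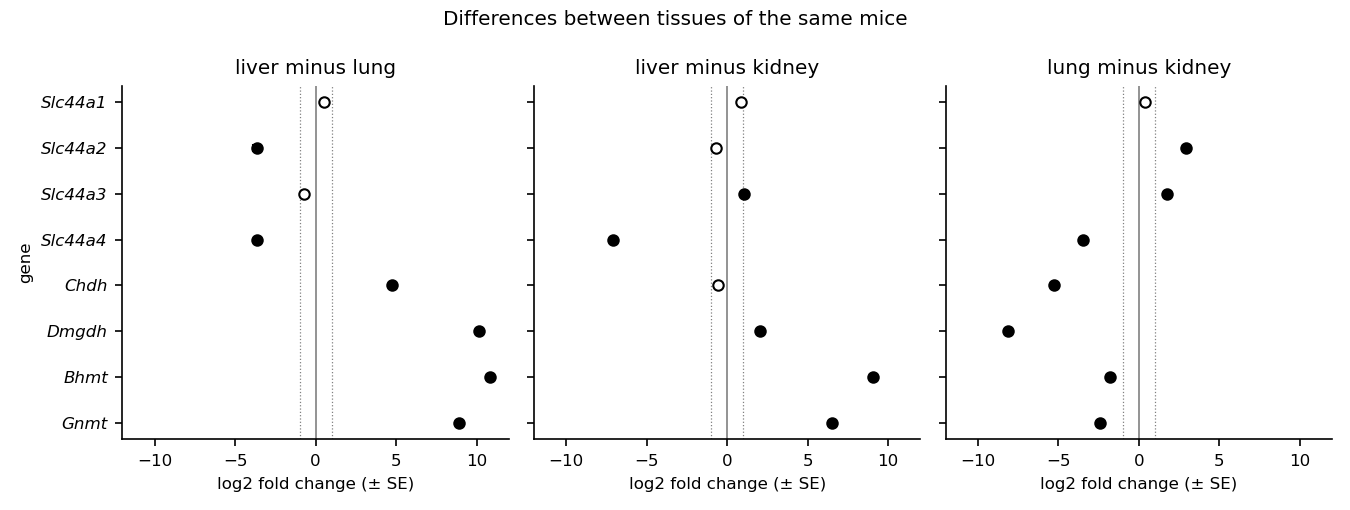
Log2 fold change of each of the 8 tested genes in the 3 tissue comparisons, the first-named tissue minus the second. Bars are standard errors from limma-voom (mostly smaller than the points), filled points were called, open points were not, and dotted lines mark -1 and 1. Bhmt reached 10.85 for liver minus lung, and Slc44a4 reached -7.11 for liver minus kidney.

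The transporter-like genes were highest in different tissues. Slc44a4, which has also been described as a carrier of thiamine pyrophosphate, lies on chromosome 17 at 35051411 to 35067381 on the plus strand (NCBIM37) and was highest in kidney. It ranged there from 60.0 CPM in CC020 through 89.9 CPM to 131.5 CPM in CC041 (87.6 ± 17.7, SD, n = 47), against 3.83 to 13.7 CPM in lung (7.91 ± 2.17) and 0 to 4.05 CPM in liver (0.772 ± 0.885). The kidney values did not overlap with those of lung or liver. The log2 fold change of lung over kidney was -3.49 ± 0.068 and that of liver over kidney -7.11 ± 0.089 (adjusted p of 1e-70 and 1.8e-88, limma-voom). In liver Slc44a4 had at most 3 counts in 23 libraries. The livers of CC036 and CC035, with 3.44 and 3.01 CPM, were among the 4 highest, and they were left out together with the lung of CC010 in a repeated fit that gave the same counts of genes called. That fit kept the liver of CC033, with 998.1 CPM of proximal tubule markers, and the lung of CC015, with 456.7 CPM of hepatocyte markers.

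Slc44a3, a family member of little known substrate, had its highest mean in lung. Its level there ranged from 9.58 CPM in CC040 through 24.8 CPM to 38.3 CPM in CC015 (23.7 ± 6.71, SD, n = 47), against 7.01 to 28.3 CPM in liver (14.6 ± 4.43) and 3.06 to 12.6 CPM in kidney (6.75 ± 2.05). All 3 ranges overlapped. Lung exceeded kidney in 47 of 47 mice and by a log2 fold change of 1.77 ± 0.08 (adjusted p = 3e-39, limma-voom). Liver exceeded kidney by 1.05 ± 0.08 (6.7e-23), but this call depended on the scaling, since the value fell to 0.24 with total counts and to 0.21 on log2(TPM + 1). Slc44a3 in liver against lung stood at -0.72 ± 0.079, below the 2-fold limit, and at -2.05 with total counts, past it.

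Slc44a2, known as a carrier of choline and as a neutrophil antigen, was highest in lung. It ranged from 0.945 to 7.29 CPM in lung (3.15 ± 1.37, SD, n = 47), while 44 of the 47 livers and 28 of the 47 kidneys had at most 3 counts, on 56 and 174 reads in all. Lung over kidney was 2.96 ± 0.19 and liver over lung -3.67 ± 0.20 on the log2 scale (adjusted p of 4.6e-27 and 1.4e-33, limma-voom). Liver against kidney was not called for Slc44a2 in the limma-voom fit and passed the 2-fold limit, lower in liver, with total counts, on log2(TPM + 0.1) and by edgeR and DESeq2, and no fold is given because most libraries of both tissues were at or under 3 counts. Slc44a1, the widely expressed choline transporter, was called in no comparison. Its mean was 18.8 ± 8.27 CPM in liver, 13.2 ± 2.19 CPM in lung and 10.2 ± 1.77 CPM in kidney. Its order changed with the scaling, because liver over lung was 0.49 ± 0.067 with TMM and -0.92 with total counts, and liver over kidney was 0.86 ± 0.067 with TMM and -0.06 with total counts.

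The whole table shifted with these values. With total counts the median log2 fold change over all genes moved to -1.43 for liver over lung, -0.95 for liver over kidney and 0.46 for lung over kidney. The share of calls that were higher in the first-named tissue moved from 43.19%, 40.05% and 53.18% to 13.71%, 14.48% and 68.75%. Leaving Rn45s and Lars2 out of the total counts, a choice made after the data were seen, gave medians of -1.24, -0.84 and 0.39 and shares of 16.06%, 17.04% and 66.53%. The calls of Bhmt, Dmgdh, Gnmt and Slc44a4 kept direction and threshold under all of these scalings.

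The other genes of the pathway were counted from lists that share no gene with the 10. Each list count stands beside the share of all tested genes called the same way, which for liver against lung was 23.7% with liver above and 31.2% with lung above. For liver against kidney these shares were 14.7% and 22.0%, and for lung against kidney 24.6% and 21.7%, the first-named tissue above in the first of each. Of 7 tested genes of betaine and sarcosine oxidation, 7 were called higher in liver than in lung, 7 higher in kidney than in lung and 3 higher in liver than in kidney. Bhmt2, a paralogue that methylates homocysteine from S-methylmethionine, stood at 9.93 ± 0.11 for liver over lung, Pipox, which oxidises pipecolate and sarcosine, at 8.61 ± 0.075 and Sardh, which demethylates sarcosine, at 6.43 ± 0.069. The 3 genes called between liver and kidney were Sardh (1.56 ± 0.067), Bhmt2 (1.04 ± 0.063) and Etfdh (1.03 ± 0.037), and they fell to 0.70, 0.18 and 0.17 with total counts, below the limit.

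Of 10 tested genes of the methionine cycle and transsulfuration, 6 were higher in liver than in lung and none lower, and 5 were higher and 2 lower in liver than in kidney. Mat1a, the liver S-adenosylmethionine synthetase, stood at 8.27 ± 0.14 for liver over lung and 10.42 ± 0.16 for liver over kidney. Cth of transsulfuration was at 7.58 ± 0.084 and Ahcy, which hydrolyses S-adenosylhomocysteine, at 7.21 ± 0.081 for liver over lung, and Cth was at -5.70 ± 0.084 for lung over kidney. Gamt, which uses the same methyl donor for creatine, was at 3.35 ± 0.066 and Ahcyl2 at -3.47 ± 0.22 for liver over kidney. Between lung and kidney 1 gene was higher in lung and 7 in kidney.

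Of 14 tested folate and glycine genes, 11 were higher and 2 lower in liver than in lung, 4 were higher and 2 lower in liver than in kidney, and 10 were higher in kidney than in lung. Ftcd of histidine breakdown stood at 10.25 ± 0.20, Gldc of the glycine cleavage system at 8.55 ± 0.094 and the formyltetrahydrofolate dehydrogenase Aldh1l1 at 7.37 ± 0.051 for liver over lung. The mitochondrial enzyme Aldh1l2 was at -2.93 ± 0.18 for liver over kidney.

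Among other choline and cation carriers, the organic cation transporter Slc22a2 stood at -8.96 ± 0.11 for liver over kidney and -10.13 ± 0.11 for lung over kidney. The value of Slc22a2 for liver over lung, 1.17 ± 0.10, turned to -0.16 with total counts. Of the Slc44 family, Slc44a5 had 0 reads in all livers and 355 reads in the 47 lungs.

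Of 8 tested genes of phosphatidylcholine and phosphatidylethanolamine synthesis, 4 were higher in liver than in lung, 3 higher and 1 lower in liver than in kidney, and 3 higher in kidney than in lung. Etnk2, an ethanolamine kinase, stood at 7.51 ± 0.099 and 5.29 ± 0.091 for liver over lung and over kidney, and Pcyt2, which activates phosphoethanolamine, at 4.54 ± 0.042 and 2.20 ± 0.041. Chpt1, the cholinephosphotransferase, was the gene lower in liver than in kidney, at -3.24 ± 0.087. Of 15 tested genes of phosphatidylcholine turnover and export, 7 were higher and 4 lower in liver than in lung, and 5 were higher and 3 lower in liver than in kidney. Abcb4, which exports phosphatidylcholine into bile, and Lcat, which esterifies plasma cholesterol, both stood at 8.97 for liver over kidney, with SE of 0.091 and 0.076. Lpcat1, which remodels phosphatidylcholine for surfactant, was at -5.43 ± 0.062 for liver over lung, and Enpp6, a choline-specific phosphodiesterase of kidney, at -6.81 ± 0.12 for liver over kidney. The betaine carrier Slc6a12 was at 8.85 ± 0.13 for liver over lung and the inositol carrier Slc5a3 at -3.78 ± 0.095 for liver over kidney.

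The next question was which of these genes varied together between strains within a tissue. Pairs were taken from the correlation of each gene with all genes that passed 1 TPM in more than 50% of the libraries of a tissue, on rank-normalised values over 47 mice, with Benjamini-Hochberg adjustment over those genes. Of the 51 pairs of the 10 genes that could be formed, 4 passed an adjusted p of 0.1 on at least 1 side, 1 in liver, 2 in lung and 1 in kidney. For a single one of the 10 genes in a tissue, between 0% (Slc44a1 in lung) and 18.3% (Slc44a2 in lung) of all other genes passed in the same way, and the share over all gene pairs was not computed. The p of each r and rho named below is from a two-sided permutation test with 100000 resamples.

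In liver the pair was Bhmt and Dmgdh, consecutive enzymes of betaine breakdown that are also neighbours on chromosome 13, with Bhmt2 lying between them. Between Bhmt and Bhmt2 lie 17758 bases, and Bhmt2 and Dmgdh start 130 bases apart on opposite strands (NCBIM37). CC001, CC010 and CC007, with 11230, 11460 and 9433 CPM of Bhmt, had 1160, 975.4 and 1104 CPM of Dmgdh, the 3 highest Dmgdh values. CC033 and CC016, the lowest for Dmgdh with 258.1 and 379.9 CPM, had 2791 and 3198 CPM of Bhmt. Pearson's r was 0.70 and Spearman's rho 0.67 (permutation p = 1e-05 for both, the smallest that 100000 resamples can give), and the adjusted p was 3.71e-04. No gene of the 9001 tested had a larger r with Bhmt, and 0.0889% of them passed. With the 2 strains left out whose Bhmt lay farthest from the median, it was 0.65. The r of Bhmt2 in liver was 0.35 with Bhmt and 0.36 with Dmgdh, with adjusted p of 0.468 and 0.597.

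In kidney the neighbour that varied with Dmgdh was Bhmt2. CC039, CC016 and CC010, with 309.6, 308.4 and 283.2 CPM of Dmgdh, had 284.8, 220.4 and 272.8 CPM of Bhmt2, and CC020, the lowest in both, had 50.95 and 75.9 CPM. The correlation of Dmgdh and Bhmt2 was r = 0.74 and rho = 0.67 (permutation p = 1e-05 for both), with an adjusted p of 4.11e-05 where 0.0186% of 10771 genes passed, and no other gene had a larger r. Without the 2 farthest strains r was 0.69. In the same kidneys r of Dmgdh with Bhmt was 0.27 (permutation p = 0.0709, rho = 0.29, p = 0.0518, adjusted p = 0.698). Across strains the values of Dmgdh in liver and kidney had r = -0.07 (permutation p = 0.646, rho = -0.05, p = 0.749, adjusted p = 0.785). Whether the liver and kidney correlations of a pair differ was not tested.

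**Figure D3:**
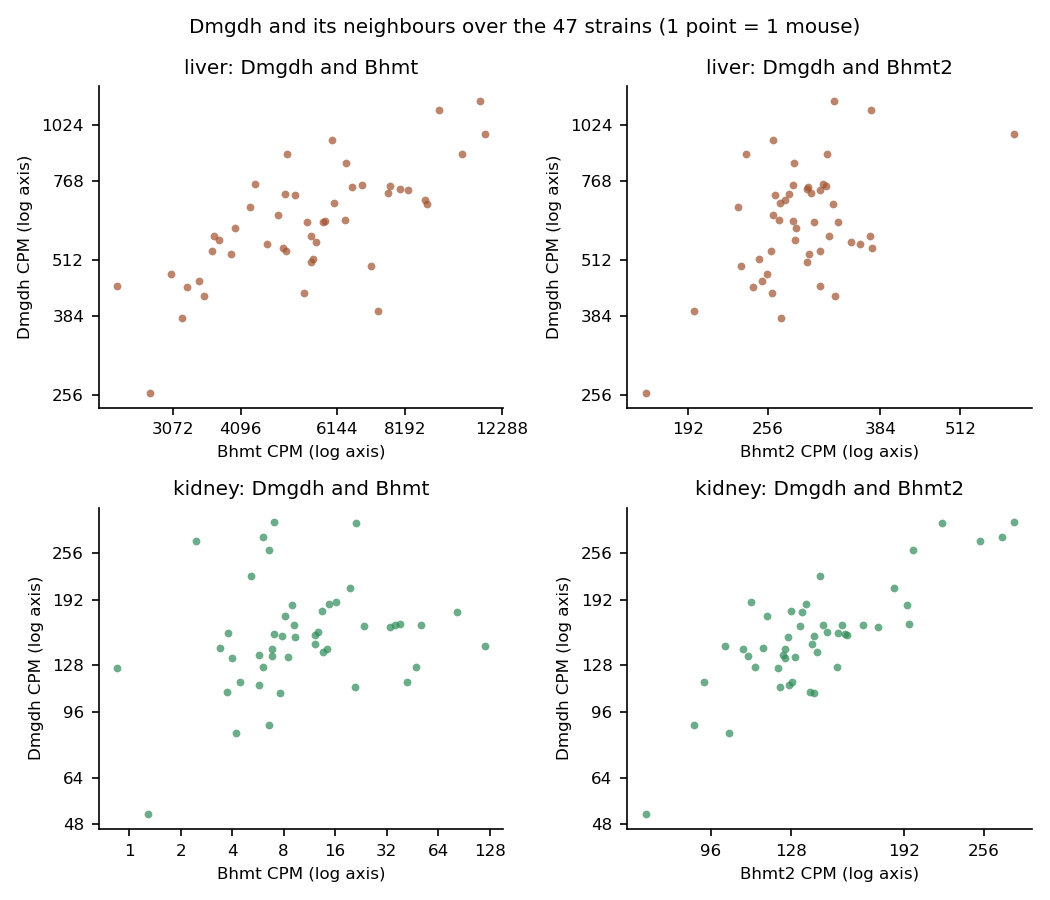
Dmgdh (vertical axes) against Bhmt in the left panels and Bhmt2 in the right panels, for liver above and kidney below, each point 1 mouse of 47, in CPM on log axes. The points rise most closely with Bhmt in liver, with r of 0.70, and with Bhmt2 in kidney, with r of 0.74, against r of 0.36 for Bhmt2 in liver and 0.27 for Bhmt in kidney. These r are of rank-normalised TMM-scaled TPM and not of the plotted CPM.

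The start regions of these genes are shown because the pairs above share a locus. A further reason is that no liver value of Bhmt or Gnmt overlapped with a lung or kidney value. The share of all genes with such a lack of overlap was not computed. On CPM the liver values of Pemt, whose windows are not shown, also did not overlap, with a lowest liver of 0.537 CPM and a highest lung of 0.415 CPM. On TPM they did overlap, with a lowest liver of 0.5 TPM against up to 2.6 TPM in lung and 0.54 TPM in kidney. The lowest liver count of Pemt was 1. All 10 genes had a start window of 250 bases in the RefSeq table (GRCm38.p6). The first sequence is the window before the start of Bhmt, chr13:93637759-93638008 on the minus strand, the second the window before Gnmt, chr17:46729166-46729415 on the minus strand, and the third the 133 bases between the starts of Bhmt2 and Dmgdh, chr13:93674303-93674435, read on the plus strand. Capitals mark the letters TCAAGGTCA and CAAAGGTCA in Bhmt, the reverse complement of CCAAT in Gnmt and that of GGGCGG between Bhmt2 and Dmgdh. The reverse complement of CCAAT also stands in the Bhmt window, 56 bases before the start, and is left in lower case there.
Bhmt: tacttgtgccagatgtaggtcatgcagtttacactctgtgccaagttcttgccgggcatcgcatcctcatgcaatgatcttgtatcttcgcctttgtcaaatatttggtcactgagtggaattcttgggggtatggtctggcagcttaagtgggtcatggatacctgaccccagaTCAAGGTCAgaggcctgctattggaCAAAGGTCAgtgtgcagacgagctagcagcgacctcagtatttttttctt
Gnmt: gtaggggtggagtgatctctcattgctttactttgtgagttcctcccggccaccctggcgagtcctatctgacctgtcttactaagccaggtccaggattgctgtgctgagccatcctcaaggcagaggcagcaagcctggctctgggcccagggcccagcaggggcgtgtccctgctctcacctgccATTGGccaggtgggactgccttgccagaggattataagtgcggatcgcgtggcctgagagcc
Bhmt2 to Dmgdh: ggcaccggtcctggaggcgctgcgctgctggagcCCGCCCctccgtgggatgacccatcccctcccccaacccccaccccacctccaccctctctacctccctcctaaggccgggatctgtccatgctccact

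The letters TCAAGGTCA began 75 bases and CAAAGGTCA 50 bases before the Bhmt start, and of 32851 such windows in the table, searched on both strands, 0.387% held the first and 0.426% the second. Both are of the form bound by nuclear receptors, and no other window of the 10 genes held either. CCAAT occurred in 33.8%, GGGCGG in 32.7% and TATAAA in 12.4% of all windows. A plus-strand gene with an opposite start within 133 bases, as Dmgdh has in Bhmt2, was found for 784 of 13572 genes (5.78%). The windows differed in composition, with 38 CpG dinucleotides before Slc44a1, 16 before Dmgdh, 11 before Slc44a3 and Slc44a4, 6 before Gnmt, 5 before Bhmt and 1 before the first start of Pemt, against a median of 6 over all windows. A match of letters is a description of the window and says nothing on what binds there. The letters were chosen after the sequences were seen, so their shares over all windows are no test of the Bhmt window.

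In lung and kidney, Bhmt varied far more between mice than in liver. Its SD on the log2 scale was 1.54 in lung and 1.42 in kidney against 0.539 in liver, where counting alone gives 0.216, 0.143 and 0.00849. The Pitman-Morgan test of paired variances gave adjusted p of 1.22e-09 for liver against lung and 1.61e-08 for liver against kidney. The SD of Bhmt was larger than that of 98.6% of genes in lung and 98.0% in kidney. Of 14 such differences that could be formed for the 10 genes, 6 passed, 3 between liver and lung, 2 between liver and kidney and 1 between lung and kidney, where 49.9%, 42.6% and 28.2% of all genes passed. With total counts in place of TMM the difference of Bhmt between liver and lung still passed, while the other 5, of Slc44a1 and Gnmt and of Bhmt between liver and kidney, no longer passed. With total counts without Rn45s and Lars2 all 6 passed.

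The lung values of Bhmt moved with hepatocyte markers. The r of Bhmt with albumin (Alb) over the 47 lungs was 0.94 and rho was 0.94 (permutation p = 1e-05 for both, adjusted p = 5.82e-19), 0.93 without the 2 farthest strains, and 0.589% of 12388 genes passed with Bhmt in lung. Alb, Serpina3k and Apoa1, all secreted by hepatocytes, had the 3 largest r with Bhmt there, at 0.94, 0.94 and 0.93. Bhmt came to a median of 5.38% of the summed hepatocyte markers in lung, against 6.34% in liver. In kidney the median for Bhmt was 9.075%, with a range from 0.653% to 200%. The lungs of CC015 and CC010, with the highest Bhmt of 26.0 and 23.4 CPM, also had the highest summed markers, 456.7 and 515.2 CPM, and CC037, the lowest in Bhmt with 0.126 CPM, had the lowest sum with 3.92 CPM. The 6 markers summed to between 3.92 and 515.2 CPM in lung and between 3.01 and 905.5 CPM in kidney, and 5 of the 6 had a median over 3 counts in each. The part of hepatocyte RNA in the lung and kidney values was not tested.

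**Figure D4:**
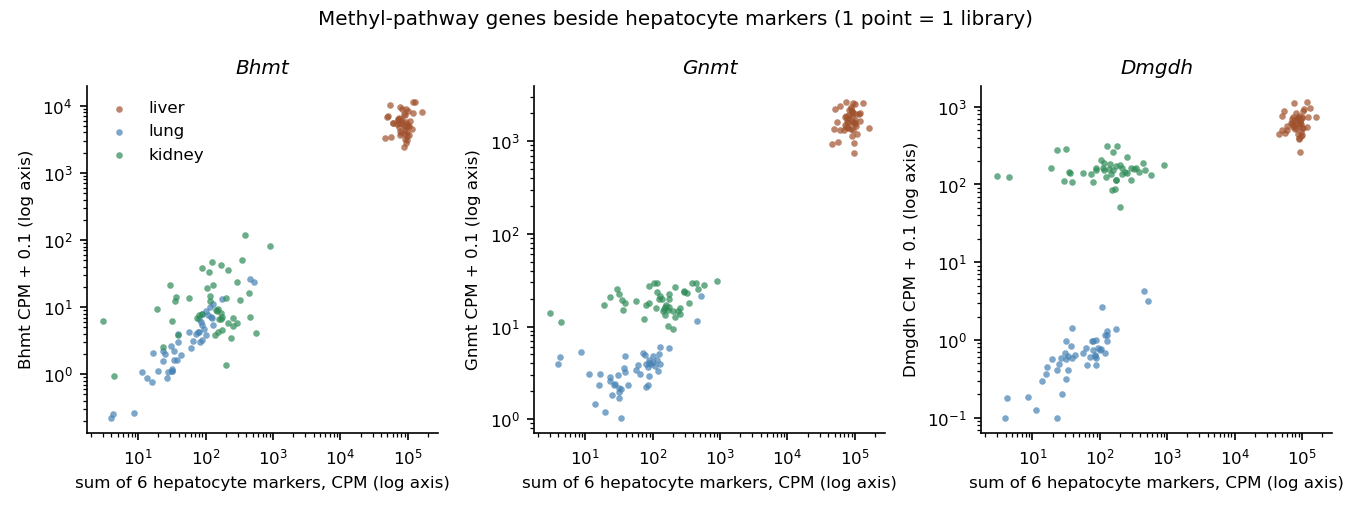
Bhmt, Gnmt and Dmgdh, as CPM + 0.1, against the summed CPM of 6 hepatocyte markers, both on log axes, each point 1 library of liver, lung or kidney. The lung points of Bhmt run along a line from CC037 at 3.92 CPM of markers to CC010 at 515.2 CPM, while the kidney points of Dmgdh stay between 50.95 and 309.6 CPM over markers from 3.01 to 905.5 CPM.

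In kidney the relation of Bhmt to Alb had r = 0.54 (permutation p = 8e-05, rho = 0.50, p = 3.7e-04, adjusted p = 0.0384, 0.45 without the 2 farthest strains), and 0.845% of genes passed with Bhmt in kidney. The kidneys of CC033 and CC027 had 120.3 and 82.2 CPM of Bhmt and that of CC030 had 0.850 CPM, whose summed markers were 381.3, 905.5 and 4.42 CPM. Other kidneys went against this order, since CC005 had 3.97 CPM of Bhmt with 569.1 CPM of markers and CC061 had 6.02 CPM of Bhmt with the lowest sum of 3.01 CPM. Bhmt correlated in kidney with Mat1a (r = 0.52, permutation p = 1.1e-04, rho = 0.47, p = 8.3e-04, adjusted p = 0.0493, 0.43 without 2 strains), another liver gene, and with Gnmt (r = 0.52, permutation p = 1.3e-04, rho = 0.45, p = 0.00159, adjusted p = 0.0493, 0.40 without 2 strains). On TPM without TMM scaling the r of Bhmt in kidney with Alb, Mat1a and Gnmt fell to 0.47, 0.45 and 0.37 and no longer passed. Dmgdh in kidney was at a median of 101.1% of the summed hepatocyte markers, against 0.750% in liver. The kidney Gnmt median was 11.1% against 2.03% in liver.

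Gnmt in lung was high in the same libraries. The highest lungs were those of CC010 with 21.1 CPM and CC015 with 11.5 CPM against a median of 3.28 CPM. Gnmt came to a median of 5.56% of the summed hepatocyte markers in lung, with a maximum of 108.4%, against a median of 2.03% in liver. Its r was 0.54 with Bhmt (permutation p = 9e-05, rho = 0.58, p = 3e-05, adjusted p = 0.0504, 0.45 without 2 strains) and 0.55 with Alb (permutation p = 5e-05, rho = 0.57, p = 3e-05, adjusted p = 0.0499, 0.46 without 2 strains), where 0.379% of genes passed with Gnmt. Without the strains CC010, CC035 and CC036 both fell to 0.49 and no longer passed. Its SD of 0.757 in lung exceeded the 0.414 of liver (adjusted p = 4.28e-04, Pitman-Morgan test) and the 0.434 of kidney (0.0018).

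Partners outside the genes described were limited here to Bhmt2, Alb, Slc34a1, Sftpc, Scgb1a1, Foxj1, Mat1a and Sardh. Among these partners and the genes described, the further called correlations had r of at most 0.49. Genes outside this list had larger r, such as Nhlrc4 with Slc44a4 in lung at 0.73, where Foxj1 ranked 182 by r. Slc44a2 and Gnmt in lung had r = 0.40 (permutation p = 0.00586, rho = 0.37, p = 0.0105, adjusted p = 0.0486, 0.42 without 2 strains), but 18.3% of genes passed with Slc44a2. Adjusted over the genes tested with Gnmt, the p of this pair was 0.293 and did not pass. Gnmt and Mat1a in kidney had r = 0.46 (permutation p = 0.00132, rho = 0.37, p = 0.0108, adjusted p = 0.0688, 0.38 without 2 strains, 3.17% passed). On TPM without TMM scaling the r of Gnmt and Mat1a fell to 0.12 and no longer passed. Slc44a4 followed the ciliated-cell regulator Foxj1 in lung with r = 0.49 (permutation p = 5.3e-04, rho = 0.51, p = 3.5e-04, adjusted p = 0.0245, 0.45 without 2 strains; 5.4% of genes passed) and the proximal tubule phosphate carrier Slc34a1 in kidney with r = 0.45 (permutation p = 0.00135, rho = 0.42, p = 0.00382, adjusted p = 0.0441, 0.45 without 2 strains; 7.07% passed). The lung ciliated markers summed to 74.5 to 288.2 CPM, and their part in the lung values of Slc44a4 was not tested. Chdh and Sardh in kidney had r = 0.43 (permutation p = 0.00232, rho = 0.47, p = 9.1e-04, adjusted p = 0.0886, 0.44 without 2 strains, 3.45% passed). Pemt and Mat1a in liver, which make and spend the same methyl donor, had r = 0.41 (permutation p = 0.00438, rho = 0.43, p = 0.00251, adjusted p = 0.088, 0.46 without 2 strains, 5.38% passed). On TPM rescaled without Rn45s and Lars2, the r of Slc44a4 with Foxj1, of Slc44a4 with Slc34a1, of Chdh with Sardh and of Pemt with Mat1a fell to 0.41, 0.27, 0.38 and 0.40 and no longer passed. The share of reads in Rn45s and Lars2 had rho of -0.438 with Pemt in liver and -0.353 with Slc44a4 in kidney, and its part in these correlations was not tested.

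The strain values of Slc44a3 correlated between tissues. Lung and kidney rose together over the 47 mice with r = 0.43 and rho = 0.46 (permutation p = 0.0028 and 0.00142, adjusted p = 0.027, r = 0.46 without 2 strains). Liver and lung went in opposite directions with r = -0.37 and rho = -0.36 (permutation p = 0.0113 and 0.0137, adjusted p = 0.0883, r = -0.37 without 2 strains), and 0.305% of genes had a lower r. CC040 had the lowest lung value of 9.58 CPM, with 25.5 CPM in liver and 3.27 CPM in kidney, and CC023 had 13.1 CPM in lung with 22.3 CPM in liver and 3.16 CPM in kidney. CC016 was the reverse, with 30.5 CPM in lung and the lowest liver of 7.01 CPM. The liver and kidney values had r = -0.15 (permutation p = 0.318, rho = -0.11, p = 0.480, adjusted p = 0.518). The negative relation was near the threshold. Without the strains CC010, CC035 and CC036 r was -0.36 and no longer passed, and on TPM without TMM scaling it was -0.24. The r of lung and kidney fell to 0.34 on that last scale and no longer passed.

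**Figure D5:**
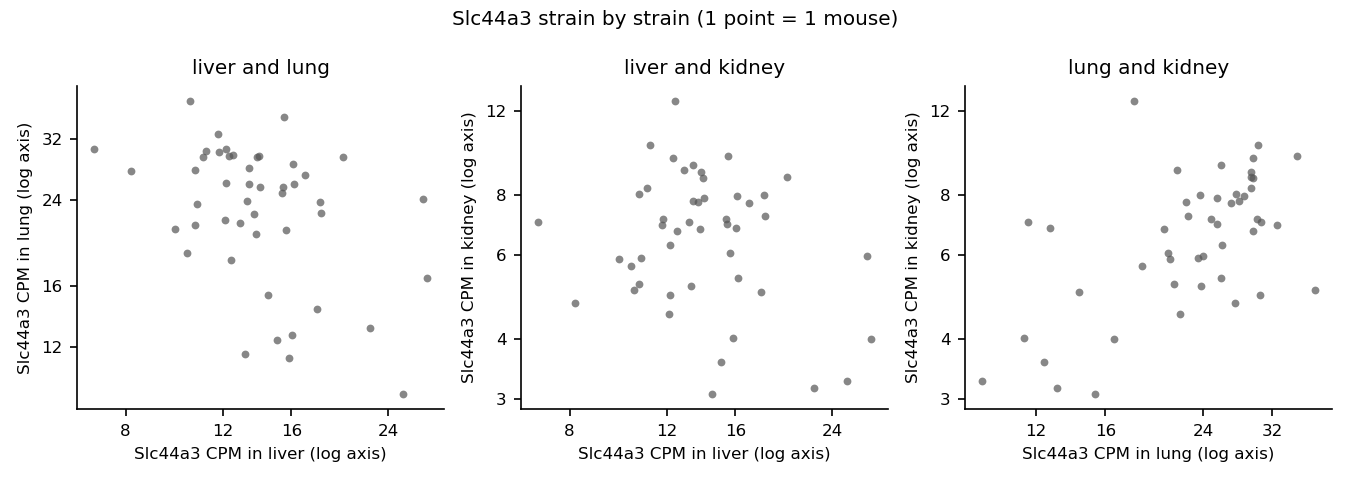
Slc44a3 in pairs of tissues, with liver against lung, liver against kidney and lung against kidney, each point 1 mouse of 47, in CPM on log axes. The points fall from upper left to lower right for liver and lung, with r of -0.37, and rise for lung and kidney, with r of 0.43. These r are of rank-normalised TMM-scaled TPM, and on log2 CPM they were -0.42 and 0.57.

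Of 14 correlations between tissues that could be formed for the 10 genes, 3 passed, 1 of 4 between liver and lung, 0 of 5 between liver and kidney and 2 of 5 between lung and kidney, where 13.5%, 23.6% and 17.5% of all genes passed. Slc44a1 was the other gene called, between lung and kidney with r = 0.35 and rho = 0.34 (permutation p = 0.0177 and 0.0191, adjusted p = 0.0991, r = 0.40 without 2 strains). This call was lost without the strains CC010, CC035 and CC036 (r = 0.35), on TPM without TMM scaling (0.12) and on log2 CPM (0.31). Between liver and kidney 5 genes were computed and 4 had r below 0, with Bhmt at -0.23 (permutation p = 0.121, rho = -0.21, p = 0.157, adjusted p = 0.282) and Gnmt at -0.20 (permutation p = 0.186, rho = -0.18, p = 0.217, adjusted p = 0.373), neither of which passed.

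Slc44a1 varied most in liver. Its SD on the log2 scale was 0.557 in liver against 0.25 in lung (adjusted p = 3.21e-06, Pitman-Morgan test) and 0.266 in kidney (1.41e-05), where counting alone gives 0.151, 0.118 and 0.164. CC037 and CC053 had 42.9 and 39.3 CPM in liver and CC031 9.81 CPM, a ratio of 4.38, while the same mice had 8.47, 13.8 and 11.2 CPM in lung. The levels of CC037 therefore stood highest in liver and second lowest in lung. Over all genes the SD had a median of 0.396 in liver, 0.385 in lung and 0.371 in kidney libraries. Among all genes, 4252 differed in spread between liver and lung, and 3715 of them varied more in liver. Between liver and kidney 3612 differed, and 3126 of them varied more in liver. With total counts neither difference of Slc44a1 passed.

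The genes most alike to each over the 47 mice, in its tissue of highest level and leaving out the 10, are given as descriptions by the 3 largest r. For Bhmt in liver these were Cat (0.60), Lrig1 (0.58) and Klhl22 (0.58), for Dmgdh in liver Zbtb16 (0.55), Slc38a2 (0.54) and Eprs (0.51), and for Gnmt in liver Ninj1 (0.70), Mtch1 (0.70) and Tmem256 (0.69). For Pemt in liver they were Samm50 (0.72), Atp5e (0.69) and Acss2 (0.67), and for Slc44a1 in liver 9130019P16Rik (0.55), Tm4sf1 (0.54) and Aqp8 (0.52). For Slc44a4 in kidney they were Pccb (0.70), Fbp1 (0.66) and Lrp2 (0.66), and for Chdh in kidney Amn (0.68), Osbpl3 (0.68) and Echdc2 (0.66). For Slc44a2 in lung they were Mapre2 (0.78), Pura (0.75) and Hist1h4d (0.71), and for Slc44a3 in lung Ccdc141 (0.68), Plcb4 (0.58) and Myzap (0.56).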

How the data were processed

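Per the labels and the methods of the study, the authors built ribosome-depleted total RNA libraries (the strand setting of counting is not given in the sources used here), aligned 50-base reads to strain-specific pseudo-genomes of mm9 with STAR 2.5.3a, kept uniquely aligned reads and quantified genes with RSEM. The deposited files hold expected counts and TPM of 24423 genes for each library. Expected counts were rounded, and genes over 1 CPM of the total counts, before TMM scaling, in at least 30% of libraries were kept. Libraries were scaled by TMM (edgeR 4.0.16), and these genes were tested with limma-voom (limma 3.58.1, R 4.3.3) on tissue, with the mouse as replicate block. The labels give no batch, which the study's own model held. The 3 tissues of a strain are from 1 mouse, and deviations of genes from the tissue mean correlated within a mouse (median r of 0.221, 0.245 and 0.255 over 8285 genes). Correlations and spreads used TMM-scaled TPM and log2 CPM with a prior count of 1. On simulated data with 12127 genes, 200 of 200 changed genes were recovered, all of them set past the fold limit. The simulation held no strain effects and no shift in the share of Rn45s and Lars2, so it cannot test the scaling. Alternatives covered the scaling, filter, pseudocounts of 1 and 0.1, thresholds, edgeR, DESeq2 1.42.0, the block and the libraries. The other pathway genes named are, per list and comparison, up to 3 of those called with the largest log2 fold change in size, and part of the list of choline and cation carriers is not reported here. Members, lists and motifs were chosen with earlier results of these data known, and the motifs after the sequences were seen. Positions are from GENCODE on NCBIM37 and sequences from RefSeq on GRCm38.p6.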

Additional observations from a re-analysis of the deposited data

How the results depend on the processing

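The counts of 6, 5 and 7 genes called between tissues were also 6, 5 and 7 without the replicate block, and no setting reversed a gene other than Slc44a1 and Slc22a2. The log2 fold change of Slc44a1 for liver over lung was -0.92 with total counts, -0.68 with total counts without Rn45s and Lars2 (chosen after seeing the data), -0.97 on log2(TPM + 1) and -1.05 on log2(TPM + 0.1), and for liver over kidney it was -0.06, -0.07 and -0.09 with total counts and on the TPM scales. Slc22a2 for liver over lung was -0.16 with total counts, -0.01 without Rn45s and Lars2, -0.03 on log2(TPM + 1) and -0.09 on log2(TPM + 0.1). With no fold limit 8 genes were called between liver and kidney. Over all genes, 12142 of 22652 were called between liver and lung without the filter on low counts, against 6657 of 12127 with it. More genes were thus tested without it. Between liver and kidney 6775 were called with total counts and 6655 on log2(TPM + 0.1), against 4440, all of 12127. The correlations called between liver and lung fell to 0 on TPM without TMM and without strains CC010, CC035 and CC036 (also chosen after seeing the data). Those between lung and kidney fell from 2 to 0 on TPM without TMM and to 1 on log2 CPM, with a filter at 0.5 TPM, on TPM without Rn45s and Lars2 and without the 3 strains. Between liver and kidney 1, Slc44a1 with r = 0.39 (adjusted p = 0.0464), was called on TPM without Rn45s and Lars2. Spread differences fell to 1, 0 and 0 with total counts, and between lung and kidney rose to 2 with a filter at 0.5 TPM and with total counts without Rn45s and Lars2. Pairs called within a tissue rose from 4 to 35 on TPM without TMM and to 7 on log2 CPM. The cause of these changes was not tested. All other counts, 66 in number, stayed within 1.5 times. Chka, Pemt outside liver, Chdh in lung and Slc44a2 outside lung are limited by their few reads.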
